A study of Homo sapiens with 12 samples.

Results

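The olfactory receptor (OR) genes of human chromosome 11 were taken as the protein-coding genes of that chromosome whose symbol begins with OR, a family number, a subfamily letter and a member number. The rule found 171 genes among 19974 protein-coding genes on chromosomes 1–22 and X in the RefSeq annotation of GRCh38.p14. OR9G9, OR8U8 and OR8U9 were listed with positions that are not on the primary sequence of the chromosome, and were left out, so 168 genes were described. Each gene was given a window of its gene body plus 10 kb on each side. The 168 windows overlapped one another and joined into 90 stretches covering 3.46 Mb. The genes fell into 7 clusters, taken as runs of genes less than 1 Mb apart. The first cluster, near the short-arm end, held 67 genes from OR52B4 to OR10A3 (chr11:4367263-7941708). The others held 7, 2, 48, 21, 1 and 22 genes in order along the chromosome, and the sixth was OR2AT4 alone.

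The study measured chromatin accessibility by ATAC-seq, where Tn5 transposase adds sequencing adapters to DNA that it can reach, in the human osteosarcoma line U2OS. It had 12 samples in 6 groups of 2, labelled as biological replicates. In 1 set of 3 groups, called the FOXA2 set here, cells carried no construct by their label (wild type), a Tet-on construct of full-length FOXA2, or a Tet-on FOXA2 construct without its C-terminal domain (CTD deletion). In the other set of 3 groups, the SOX2 set, the groups were a wild type whose title also names the SOX2 cell line, Tet-on SOX2, and a Tet-on fusion of SOX2 with the FOXA2 CTD. By their labels, the construct cells received 500 ng/ml of doxycycline over 4 days to switch the construct on. The protocol text of every sample mentions doxycycline, while the treatment field of both wild types is empty, so whether the wild types received it is not known. The labels do not say whether a line was 1 clone. The question for the OR genes was whether FOXA2 or SOX2 opens gene clusters that are closed in these cells, and whether the CTD of FOXA2 changes this.

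Olfactory receptors are G-protein-coupled receptors that detect odorants in the sensory neurons of the nose. They form the largest gene family of the human genome, lie in tandem clusters, and are encoded mostly by a single coding exon. Class I receptors, of the families OR51, OR52 and OR56, resemble those of fish and sit together on the short arm of chromosome 11, and class II receptors make up the rest. In cells outside the olfactory epithelium, and for nearly all receptors in any one olfactory neuron, these genes are silent and are packed in heterochromatin. FOXA2, a forkhead factor of endoderm, and SOX2, a factor of pluripotent and neural cells, are known as pioneer factors, which can bind their sites in closed chromatin.

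The data are 9 peak lists: 1 per library in the FOXA2 set and 1 per group in the SOX2 set, in a layout that compares a pair of inputs by their irreproducible discovery rate (IDR). Lists of the SOX2 set were used at a global IDR of at most 0.05. Read depth is unknown, and the lists differed widely in length. The FOXA2 set held 19862 and 25088 peaks in the libraries labelled wild type, 161136 and 57946 with full-length FOXA2, and 78820 and 146854 with the CTD deletion, for replicates 1 and 2. In the SOX2 set, the wild-type list had 48142 peaks, that of SOX2 65628 and that of the fusion 75544. The lists of wild type replicate 2 and full-length replicate 2 name a p threshold in every peak name. Their lowest −log10 p values were 5.43 and 5.22. The lowest was 3.44 in wild type replicate 1, and 2.01 in full-length replicate 1 and in both CTD-deletion libraries. Peaks in the FOXA2 gene were present in all 6 libraries of the FOXA2 set. A peak at the SOX2 start was present in all 3 lists of the SOX2 set, so presence at neither gene checked the labels. The strongest FOXA2 peak had a fold enrichment over the library's own background of 5.19 and 14.7 in wild type replicates 1 and 2. The values were 5.76 and 44.3 with full length, and 6.94 and 7.07 with the deletion. Among constructs, only full-length replicate 2 thus exceeded wild type replicate 2. Both of these lists name a p threshold, and the cause of the difference was not tested. Peak names in the list of wild type replicate 1 begin with dc, as do those of the CTD-deletion lists, and the libraries are called by their label here. Of osteoblast-lineage markers, 5 had a listed start, and from 0 to 3 of them had a peak within 1 kb of it. RUNX2 had one in 7 of 9 lists, while ALPL and IBSP had none in any list. Of markers of olfactory sensory neurons, 9 had a listed start and from 0 to 4 had a peak there. GNAL had one in 8 of 9 lists and ADCY3 and ANO2 in 6 each, STOML3 in 1, and CNGA2, CNGA4, CNGB1, RTP1 and RTP2 in none.

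In the wild-type libraries, few OR windows held a peak. Peaks touching the windows numbered 12 in wild type replicate 1 and 12 in replicate 2, and they reached 16 and 13 of the 168 genes. With full-length FOXA2 there were 189 and 49 such peaks, reaching 127 and 57 genes. With the CTD deletion there were 84 and 163, reaching 72 and 115 genes. The wild type of the SOX2 set had 32, SOX2 60 and the fusion 77, reaching 34, 60 and 73 genes. The construct lists were above the wild-type lists of their set in every case, and they were also the longer lists. OR peaks made up 0.0604% and 0.0478% of the wild-type lists of the FOXA2 set, from 0.0846% to 0.117% of the 4 construct lists, 0.0665% of the wild type of the SOX2 set, 0.0914% of the SOX2 list and 0.102% of the fusion list. The median fold enrichment over the library's own background, a ratio given by the authors, ranged from 3.31 to 6.48 for OR peaks in the 6 libraries. The median over all peaks ranged from 3.31 to 6.48 as well. In wild type replicates 1 and 2 the OR medians were 5.46 and 5.30, against 5.16 and 5.93 over all peaks. No OR peak of the FOXA2 set had a fold enrichment above 14.3.

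**Figure D1:**
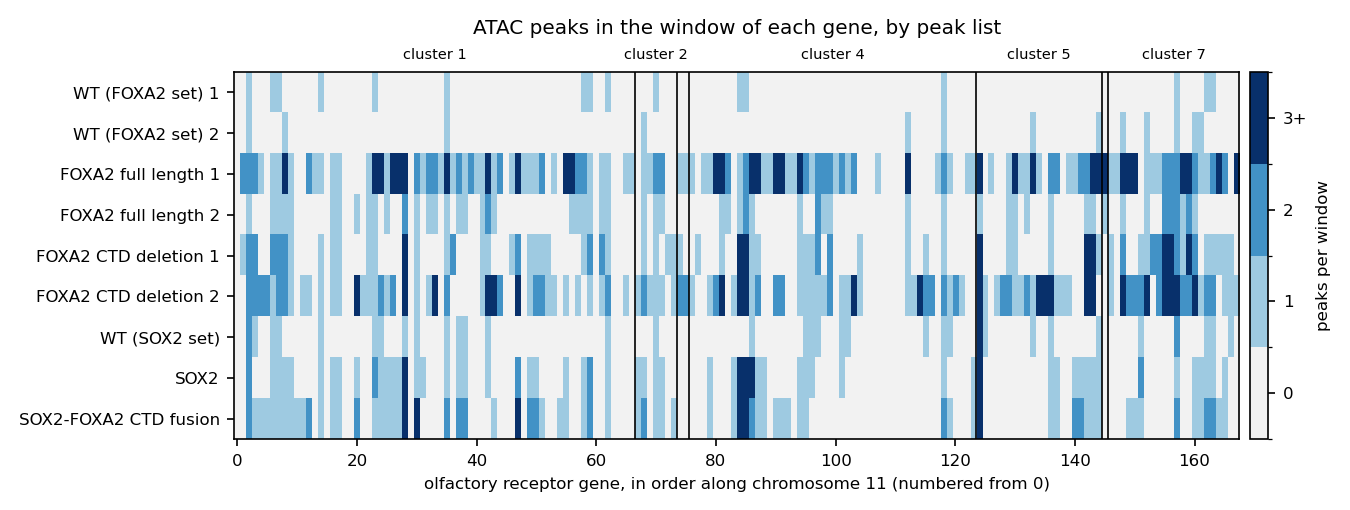
Number of ATAC peaks in the window of each of the 168 OR genes (columns, in order along the chromosome) in each of the 9 lists (rows), with vertical lines between clusters; clusters 3 and 6, with 2 genes and 1 gene, are not labelled. The wild-type rows reach 16 and 13 genes in the FOXA2 set and 34 in the SOX2 set, and full-length replicate 1 and CTD deletion replicate 2, the longest lists, reach 127 and 115 genes.

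The genes differed among themselves in how many lists reached them. A peak was present in all 9 lists for 4 genes, OR52K1, OR52H1, OR5M1 and OR10D3, which are named after their values were seen. No list had a peak for 15 genes: OR52B4, OR51A7, OR51A4, OR51A2, OR51B6, OR52E4, OR10A4, OR5P2, OR5P3, OR5T3, OR5T1, OR8K3, OR8K1, OR8J1 and OR8U1. A list labelled wild type, of either set, had a peak for 45 genes. In the FOXA2 set, 21 regions touching OR windows were called in a wild-type library, of which 3 were called in both and 4 lay in the gene body of an OR gene. These 3 were called in all 4 construct libraries too. The first was at the end of OR52K1 (chr11:4492735-4493694), with fold enrichments of 6.72 and 4.99 in wild type, 6.19 and 9.89 with full-length FOXA2 and 6.73 and 7.14 with the CTD deletion. The second was upstream of OR52H1 (chr11:5550277-5551047), at 5.79 and 7.48 in wild type, 3.87 and 5.11 with full length and 6.02 and 2.92 with the CTD deletion. The third, at the edge of the OR5M1 window (chr11:56624560-56625191), stood at 5.79 and 6.24, 5.52 and 7.16, and 6.67 and 6.84 in the same order. Fold enrichments are relative to each library's own background, so they are set side by side without a test. A window reaching another protein-coding gene or its start was found for 19 OR genes. Among these, 2 and 1 had a peak in wild type replicates 1 and 2, against 14 and 12 of the other 149.

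In every list, most starts of OR genes had no peak within 1 kb. A start and strand were listed for 135 of the 168 genes. A peak lay within 1 kb of the start of 0 and 1 of them in wild type, 14 and 5 with full-length FOXA2, 9 and 17 with the CTD deletion, 3 in the wild type of the SOX2 set, 9 with SOX2 and 11 with the fusion. That is at most 12.6% of OR starts in any list, against 35.2% to 63.8% of the 15812 protein-coding starts across the 9 lists. Both full-length libraries had a peak near the start of OR5I1, OR10D3, OR52N2, OR5AS1 and OR4C6. Both CTD-deletion libraries had one near the starts of OR8U3, OR10D3, OR5AS1, OR4C6, OR5I1, OR8B2 and OR4C13. Of these, OR10D3 also had a peak at its start in wild type replicate 2, and OR52N2 in the wild type of the SOX2 set. With SOX2, 9 starts had a peak, among them OR52K1, OR52N2, OR10A2, OR56B1, OR51L1, OR5D3, OR4D9 and OR4C6. With the fusion there were 11, among them OR52K1, OR51L1, OR4D11, OR56B1, OR10A2, OR8B2, OR5D3 and OR4X2. The wild type of that set also had a peak at OR56B1.

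**Figure D2:**
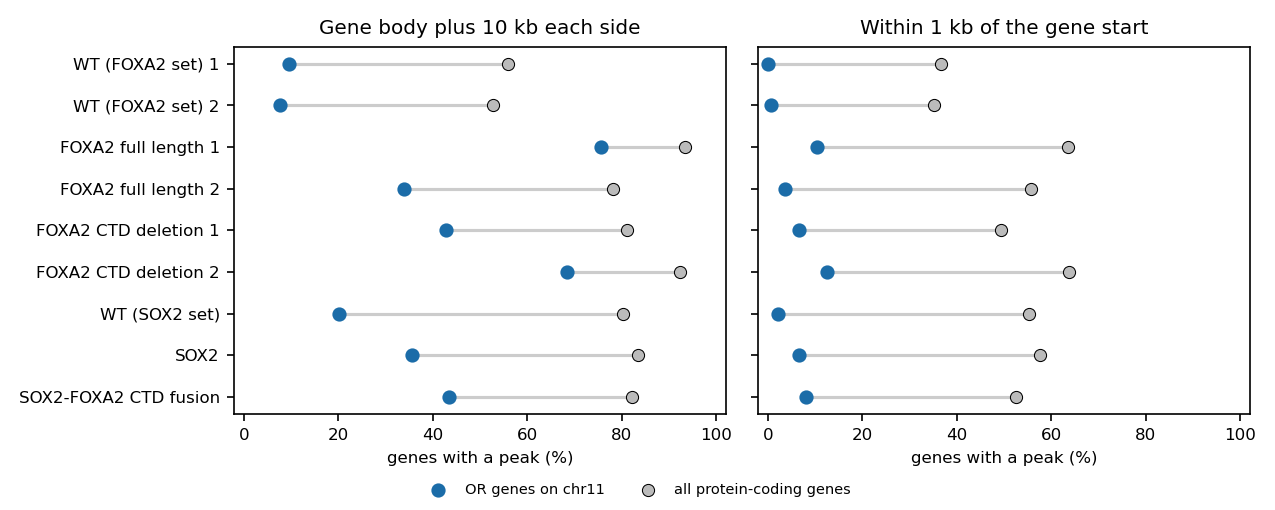
Percentage of genes with a peak in each of the 9 lists, for OR genes of chromosome 11 (blue) and all protein-coding genes (grey), within the gene body plus 10 kb on each side (left, 168 OR genes) and within 1 kb of the gene start (right, 135 OR genes). The OR genes lie below all protein-coding genes in every list, and the starts stay at or below 12.6%.

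The promoter itself, taken as 250 bases before to 50 after the start, carried a peak for 8 of the 135 genes in at least 1 list. Those called in more than 1 list are shown to let the reader see what an open OR promoter looks like, with OR5AS1 added because it alone of the 8 holds the SOX core searched. Sequences are from RefSeq (GRCh38.p14), 5′ to 3′ on the strand of the gene, which is plus for all 4. Capitals mark CATTGT or its reverse complement, and TGTTTAC and TATTTAC, as FOXA cores, were searched on both strands and not found in any of the 8. OR52N2 (chr11:5808674-5808973) was called in both full-length libraries, CTD deletion replicate 2, the wild type of the SOX2 set and SOX2. OR4X2 (chr11:48244854-48245153) and OR4C6 (chr11:55661951-55662250) were called with SOX2 and with the fusion. OR5AS1 (chr11:56027404-56027703) was called in CTD deletion replicate 1.
OR52N2: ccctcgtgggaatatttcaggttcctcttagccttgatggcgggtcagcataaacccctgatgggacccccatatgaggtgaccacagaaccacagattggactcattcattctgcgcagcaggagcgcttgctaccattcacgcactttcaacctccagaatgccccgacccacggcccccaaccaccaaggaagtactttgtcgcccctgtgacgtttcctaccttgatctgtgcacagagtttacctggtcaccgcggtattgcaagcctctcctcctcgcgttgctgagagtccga
OR4X2: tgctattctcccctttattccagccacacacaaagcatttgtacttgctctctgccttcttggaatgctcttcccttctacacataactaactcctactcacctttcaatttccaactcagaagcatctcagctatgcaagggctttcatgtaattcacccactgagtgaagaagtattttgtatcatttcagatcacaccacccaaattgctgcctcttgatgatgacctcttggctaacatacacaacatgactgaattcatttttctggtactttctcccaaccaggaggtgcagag
OR4C6: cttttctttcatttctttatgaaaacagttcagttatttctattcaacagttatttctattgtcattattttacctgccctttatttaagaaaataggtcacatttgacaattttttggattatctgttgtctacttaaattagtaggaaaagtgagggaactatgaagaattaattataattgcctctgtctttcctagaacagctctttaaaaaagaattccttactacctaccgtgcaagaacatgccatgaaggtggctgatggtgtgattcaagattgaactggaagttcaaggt
OR5AS1: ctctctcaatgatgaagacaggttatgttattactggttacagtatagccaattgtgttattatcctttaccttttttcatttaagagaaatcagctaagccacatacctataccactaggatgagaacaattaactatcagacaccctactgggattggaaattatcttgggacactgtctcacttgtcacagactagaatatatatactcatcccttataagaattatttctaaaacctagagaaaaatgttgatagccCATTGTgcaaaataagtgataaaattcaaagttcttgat
OR52N2 stands apart by base composition, with 55.3% G and C against 42.7%, 32.3% and 33.3% in the other 3. The median over the 135 OR promoters was 37.0%, and over the 15812 protein-coding promoters 62.7%. The FOXA cores occurred in 17 of the 135 OR promoters (12.6%), in 4.55% of all protein-coding promoters and in 11.7% of 179 OR promoters on other chromosomes. CATTGT occurred in 24 OR promoters (17.8%), against 7.93% and 34 of those 179, and the AP-1 element TGANTCA in 15 (11.1%), against 5.76% and 11.2%. These are matches of letters in AT-rich sequence, not binding sites. By list, the promoter peaks numbered 0 and 0 in wild type, 3 and 1 with full-length FOXA2, 1 and 2 with the CTD deletion, and 1, 4 and 2 in the SOX2 set, while 31.2% to 54.5% of protein-coding promoters had a peak.

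The OR windows were compared with the rest of chromosome 11 within each list. This ratio still moves with the number of peaks kept, as the values at equal numbers below show. In wild type, the windows held 3.47 peaks per Mb in each replicate, against 6.94 and 7.64 in the rest of the chromosome, which is 2.00 and 2.20 times as many. On the log2 scale the ratio of OR windows over the rest was −1.0 and −1.14 in wild type, 0.00 and −0.45 with full-length FOXA2 and −0.16 and −0.12 with the CTD deletion. The group means were −1.07 ± 0.10, −0.23 ± 0.32 and −0.14 ± 0.03 (SD, n = 2 each). All 4 construct libraries were thus above both wild-type libraries. Over the 6 libraries the mean was −0.48 ± 0.48 (SD), with a two-sided exact sign-flip permutation p of 0.0625, where the smallest possible is 0.03125. This mean pools wild type and constructs, so its SD includes the difference between groups and it describes no single group. Constructs minus wild type came to 0.89 (two-sided exact permutation p = 0.0667, the smallest that 4 libraries against 2 allow). Full length minus wild type was 0.85 and CTD deletion minus wild type 0.93, each with an exact permutation p of 0.333, the smallest for 2 against 2. Full length minus CTD deletion was −0.08, less than the spread between the full-length replicates (exact permutation p = 1). The wild-type values rest on 12 peaks each, for which the exact 95% Poisson interval is 6.20 to 21.0 peaks and covers counting error only.

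The list threshold moves with this result, so the difference was taken within lists that name a p threshold and within lists that do not. Between the lists that carry a p threshold in their names, full-length replicate 2 exceeded wild type replicate 2 by 0.69. Among the others, full-length replicate 1 exceeded wild type replicate 1 by 1.00, CTD deletion replicate 1 by 0.84 and replicate 2 by 0.88. These others do not share a threshold: the lowest −log10 p was 3.44 in that wild type and 2.01 in each construct list. The differences among them therefore still mix threshold and construct. At a common lowest −log10 p of 5.43, constructs minus wild type was 0.84. With the strongest 19862 peaks of every list, the log2 ratios were −1.0 and −0.99 in wild type, −0.49 and −0.47 with full length, and 0.13 and −0.36 with the CTD deletion, from 12, 11, 15, 17, 26 and 18 OR peaks. The constructs stayed above the wild types there by 0.70, on counts whose intervals overlap. In the SOX2 set, with 1 list per group and no test, the ratio was −0.92 in wild type, −0.51 with SOX2 and −0.30 with the fusion, and −0.92, −0.69 and −0.38 with 48142 peaks in each list.

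**Figure D3:**
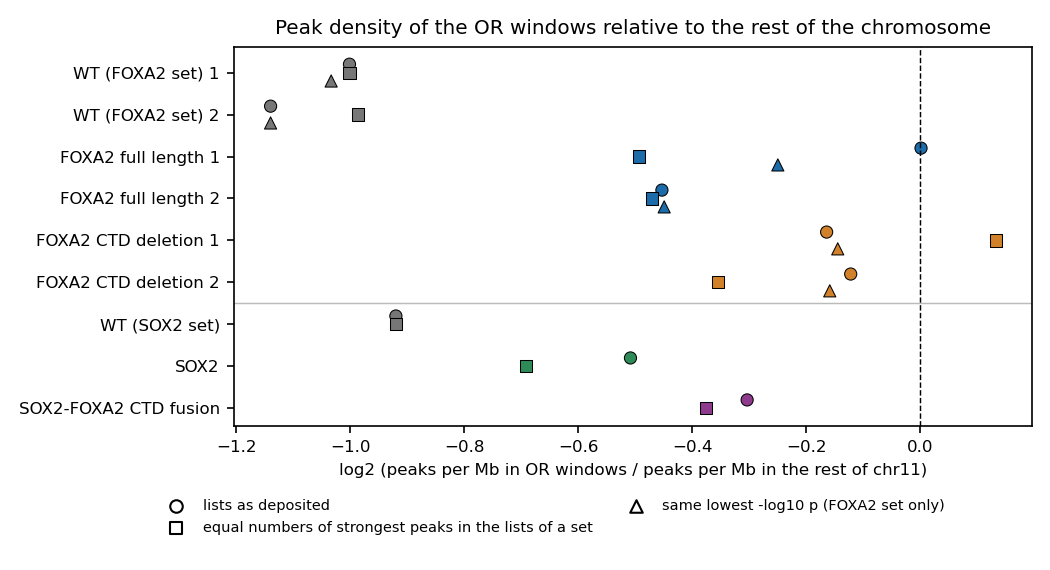
Log2 ratio of peaks per Mb in the OR windows over peaks per Mb in the rest of chromosome 11 for each list (1 point per list and setting), with the lists as deposited (circles), with equal numbers of peaks (squares) and at the same lowest −log10 p (triangles). The wild-type lists lie at −1.14 to −0.92, and every construct list lies above the wild types of its set, only CTD deletion replicate 1 at equal numbers reaching 0.13 and full-length replicate 1 as deposited lying at 0.00.

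How closed the OR windows are depends on what they are set against. Relative to the windows of the 1130 other protein-coding genes of the chromosome, the log2 ratio was −0.67 ± 0.62 (SD) and below 0 in 6 of 6 libraries (exact sign-flip p = 0.03125, adjusted 0.0781 by Benjamini-Hochberg over 5 comparisons). Relative to the windows of all 19582 protein-coding genes outside the family it was −0.67 ± 0.59, with the same p. Relative to 221 OR genes on other chromosomes it was 0.10 ± 0.16 (adjusted exact p = 0.312). Relative to 250 zinc finger genes of chromosome 19 it was −0.30 ± 0.76, and relative to 53 clustered protocadherin genes −0.20 ± 0.66 (adjusted exact p = 0.547 and 0.656). Both wild-type libraries were below the zinc finger genes, at −1.50 and −0.79, and 3 of 4 construct libraries above them. Peaks in the gene body of other protein-coding genes, or within 1 kb of their listed starts, were then removed from both sides. The log2 ratio to the rest of the chromosome was then −0.66 and −0.55 in wild type, 0.12 and −0.08 with full length, and −0.05 and −0.03 with the CTD deletion. Its mean was −0.21 (exact sign-flip p = 0.219).

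With the lists as deposited, full-length FOXA2 gained OR regions at a share near that of the whole genome. Gained here means a peak in each library of the construct and none in either wild type, and lost means the opposite. Of 337 regions touching OR windows, 30 were gained (8.90%, Wilson 95% interval 6.31% to 12.4%), against 9.06% of all 276021 regions. None was lost, against 0.155% of all regions, but a loss needs a peak in both wild types, which 3 OR regions had. Losses numbered 3 and 4 without wild type replicate 1 and 2 in turn (0.893% and 1.19%, against 1.12% and 1.28% of all regions), and 1 with 19862 peaks a list. The gained regions touched the windows of 40 of 168 genes (23.8%), against 46.0% of all protein-coding gene windows, which are longer. Of the 337 regions, 257 were called in a single library, 119 of them in full-length replicate 1 and 99 in CTD deletion replicate 2. Without full-length replicate 2, 173 OR regions were gained (51.8%, against 49.0% of all regions). Between the lists that name a p threshold, full-length replicate 2 had 42 OR regions that wild type replicate 2 lacked, and lacked 5 of the latter. The 42 are 12.5% of the OR regions, against 13.6% of all regions. Full-length replicate 1 had 179 that wild type replicate 1 lacked (53.1%, against 51.4%), and lacked 4. The lowest −log10 p of these lists differed, at 2.01 and 3.44. These shares are near those of the whole genome. With each list held to 19862 peaks, 6 OR regions were gained (12.2% of 49, against 7.52% of all regions).

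The gained regions lay where OR regions of the set lie in general. Of the 30, 10 lay in an OR gene body and 3 were centred within 1 kb of a listed start, against 103 and 27 of all 337 (30.6% and 8.01%). Another protein-coding gene was touched by 1 of the 30. Their fold enrichment was 2.75 to 7.18 (median 4.54) in replicate 1 and 4.09 to 14.3 (median 6.99) in replicate 2, against medians of 4.20 and 6.48 over all regions gained with full-length FOXA2. Regions were ranked by the lower of their percentiles of −log10 p in the construct's libraries. The first was in the window of OR8D1, a class II receptor (chr11:124296515-124297435), with fold enrichments of 5.77 and 14.3 and no peak in either wild type. It was called in both CTD-deletion libraries, at 5.59 and 5.17, and in no list of the SOX2 set. The second lay 3548 bp upstream of OR52E2, a class I receptor (chr11:5062787-5063564), at 5.39 and 13.3 with full length and 9.29 and 7.21 with the CTD deletion. The third was 8116 bp upstream of OR2D2 (chr11:6900270-6900962), at 5.73 and 11.6 with full length and 5.0 and 4.95 with the CTD deletion. Neither place had a peak in any other list. The next lay in the gene body of OR2AT4, a receptor also known from skin keratinocytes (chr11:75082409-75082916), at 4.90 and 10.6. It had no peak in either CTD-deletion library, and in the SOX2 set only entries above the IDR limit, at 0.524 with SOX2 and 0.112 with the fusion. The last of the 5 was 1852 bp upstream of OR8D4 (chr11:123899828-123900803), at 4.96 and 9.89 with full length and 5.61 and 5.20 with the CTD deletion.

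With the CTD deletion, 27 of the 337 OR regions were gained (8.01%, Wilson 95% interval 5.56% to 11.4%), against 8.72% of all regions, and none was lost, against 0.0576%, with the same limit on losses. They touched 33 gene windows (19.6%, against 41.2% of all protein-coding gene windows). Without CTD deletion replicate 1 the count was 147 (48.2%, against 46.4% of all regions) and without replicate 2 it was 68 (28.5%, against 26.2%). Against wild type replicate 1 alone, the only wild type without a p threshold in its peak names, the count was 33 (9.79%, against 11.4% of all regions), with 2 lost. With 19862 peaks a list it was 8 (16.3% of 49, against 5.74% of all regions). Their fold enrichment was 3.03 to 9.29 (median 4.10) in replicate 1 and 2.34 to 8.05 (median 4.76) in replicate 2, against medians of 3.90 and 4.09 over all regions gained with the deletion. The OR52E2 region above ranked highest. The next lay within OR51E2, a receptor known for its expression in prostate, and its neighbour OR51C1 (chr11:4694228-4694936), at 6.62 and 8.05 with the deletion and 4.42 and 5.80 with full length. The third lay 1386 bp into OR10A2 (chr11:6863979-6864908), at 6.07 and 6.59 with the deletion and 3.96 and 8.52 with full length, and it was also called with SOX2 and the fusion. The OR8D4 region came next. The last of the 5 lay in the windows of OR52N1 and OR52N2 (chr11:5799599-5800554), at 7.20 and 5.68 with the deletion and 7.18 and 8.18 with full length.

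**Figure D4:**
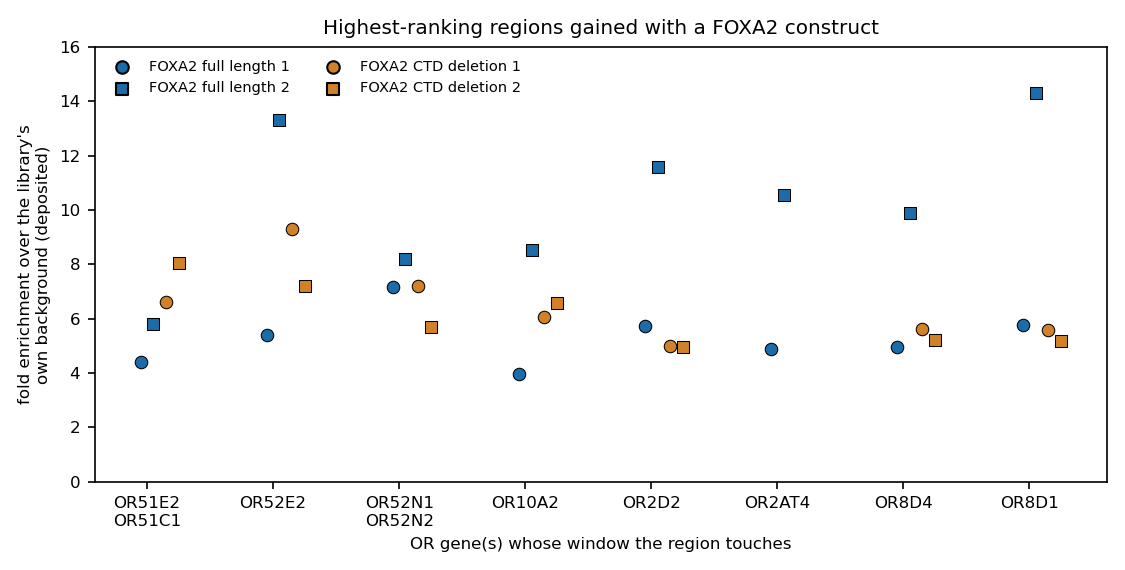
Fold enrichment over the library's own background, as deposited, at the 8 regions that ranked highest among OR regions gained with full-length FOXA2 or with the CTD deletion (x axis, by the OR genes whose windows they touch, in chromosomal order); each point is 1 library, and wild type had no peak at any of them. OR2AT4 is the only one of the 8 without a CTD-deletion peak.

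Both FOXA2 constructs were compared with the same wild-type libraries, so their gains are not independent of each other. CTD deletion replicate 1 had a peak at 19 of the 30 OR regions gained with full-length FOXA2 (63.3%) and replicate 2 at 24 of them (80%), a mean of 71.7% ± 11.8 (SD, n = 2). Over all regions gained with full length these were 53.8% and 75.4%, a mean of 64.6% ± 15.2. Full-length replicate 1 had a peak at 23 of the 27 gained with the CTD deletion (85.2%) and replicate 2 at 18 (66.7%), a mean of 75.9% ± 13.1 (SD, n = 2). Over all regions gained with the deletion these were 71.9% and 55.1%, a mean of 63.5% ± 11.9. The OR share was above that of all regions in each of the 4 libraries, and the share of all regions lay within the Wilson 95% interval of each OR share (45.5% to 78.1%, 62.7% to 90.5%, 67.5% to 94.1% and 47.8% to 81.4% in the same order). Gained with full length and called in no CTD-deletion library were 5 OR regions (1.48%, against 1.65% of all regions), and 4 of them lay in an OR gene body. Beside OR2AT4 they were in the windows of OR52N4 and OR56B1 (chr11:5746058-5746685; fold enrichments 4.97 and 4.77), at OR2AG1 and OR6A2 (chr11:6787367-6787704; 4.74 and 5.45), at OR10A5 (chr11:6839822-6840298; 2.76 and 6.48) and at OR4C11 (chr11:55604714-55605234; 3.96 and 6.48). The reverse held for 4 regions (1.19%, against 1.94%), of which 3 lay in an OR gene body. These were at OR51B5 (chr11:5504385-5504654; 3.47 and 3.51 in the CTD-deletion libraries), OR4C13 (chr11:49951343-49951870; 3.03 and 2.94), OR5T2 (chr11:56232814-56233114; 3.90 and 5.26) and OR9Q1 (chr11:58058845-58059476; 4.10 and 4.76). None of these 9 regions exceeded a fold enrichment of 6.48 apart from that of OR2AT4. At the same lowest −log10 p of 5.43 in all lists, the share of full-length-gained OR regions called with the CTD deletion was 44.4%. The share over all regions at that threshold is not given here.

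With SOX2 and with its fusion to the FOXA2 CTD, OR regions were both gained and lost relative to the wild-type list, which was the shortest of the 3. Of 98 regions of the SOX2 set that touched OR windows, 40 were gained with SOX2 (40.8%, Wilson 95% interval 31.6% to 50.7%), against 33.9% of all 102872 regions, and 12 were lost (12.2%), against 17.0%. With the fusion 54 were gained (55.1%, interval 45.2% to 64.6%), against 43.7%, and 9 were lost (9.18%), against 17.1%. A region called in wild type cannot be gained, and only such a region can be lost. These were 32 of the 98 OR regions, while the wild-type list held 48142 peaks for all 102872 regions. The shares therefore move with the wild-type calls, and an excess of gains at OR windows beyond that was not tested. The gained regions touched 42 gene windows with SOX2 (25%, against 45.7% of all protein-coding gene windows) and 58 with the fusion (34.5%, against 48.2%). Of the SOX2-gained regions 13, and of the fusion-gained ones 14, had a wild-type entry above the IDR limit (32.5% and 25.9%, against 37.4% and 28.1% of all regions gained with each). With the same 48142 peaks in each list, 22 of 67 OR regions were gained with SOX2 (32.8%, against 27.5% of all regions) and 15 lost (22.4%, against 27.4%). With the fusion 31 were then gained (46.3%, against 31.1%) and 16 lost (23.9%, against 31.1%). Of the 40 and the 54, 13 and 19 lay in an OR gene body (32.5% and 35.2%), against 34 of all 98 (34.7%), and 5 and 7 were centred within 1 kb of a listed start (12.5% and 13.0%), against 11 (11.2%). Their −log10 p was 6.14 to 26.1 (median 9.08) with SOX2 and 5.53 to 22.9 (median 9.13) with the fusion, against medians of 9.95 and 8.77 over all regions gained with each. With 1 list per group, the IDR limit is the only check between replicates, and no spread between them is available. The intervals cover counting error only.

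**Figure D5:**
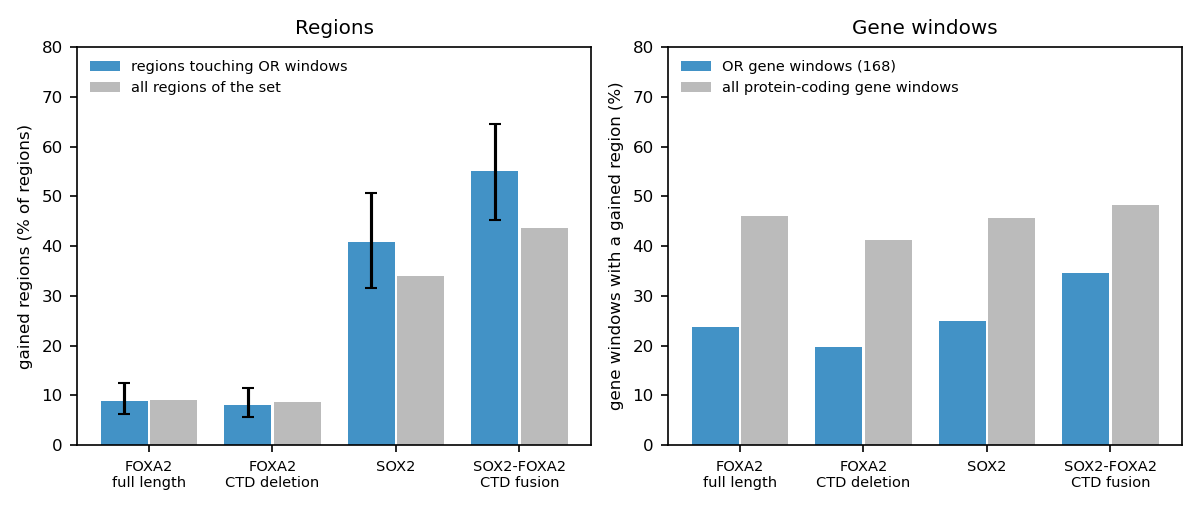
Left, percentage of regions gained with each construct among regions touching OR windows (blue, error bars are Wilson 95% intervals) and among all regions of the set (grey); right, percentage of the 168 OR gene windows and of all protein-coding gene windows that touch a gained region. For both FOXA2 constructs, with the lists as deposited, the regions lie near the background of 9.06% and 8.72%. The interval of the fusion, from 45.2%, begins above its background of 43.7%. The shares on the left count regions called in wild type, which cannot be gained. These were 32 of the 98 OR regions in the SOX2 set, while its wild-type list held 48142 peaks for all 102872 regions. An excess at OR windows beyond this was not tested.

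The −log10 p values in the lists of the SOX2 set are the lower of the pair of inputs that IDR compares. The OR region that ranked highest with SOX2 lay at the edge of the OR4P4 window (chr11:55624153-55625217). Its −log10 p was 26.1 with SOX2, 14.2 with the fusion and 4.07 in wild type, where the higher input had 13.3. The wild-type IDR of 0.335 left it uncalled there. The second was near OR4A15 (chr11:55357351-55358283), at 23.9, 14.9 and 6.15 in the same order. The third lay in the windows of OR4S2 and OR4C6 (chr11:55657779-55658618), at 20.7, 13.5 and 6.15, and wild type replicate 1 of the FOXA2 set also had a peak there. At both, the wild-type IDR was just over the limit, at 0.0673 and 0.0620, and the higher wild-type inputs had 6.27 and 6.40. The next, at OR51E2 and OR51C1 (chr11:4697301-4698355), had 20.4 with SOX2 and 22.9 with the fusion, where it ranked first, and no entry in any of the 7 other lists. The last of the 5 lay 9931 bp upstream of OR4B1 (chr11:48206539-48207220), at 18.1 and 10.2, also with no wild-type entry. With the fusion, the next were in OR51L1, 969 bp from its start (chr11:4995532-4996108), at 15.6 against 9.12 with SOX2, then near OR51V1 (chr11:5204329-5205247), at 15.2 against 14.3, and in OR56A3 (chr11:5956264-5956818), at 15.1 against 14.7. The regions are named in the order of their rank within the list of the construct, while the values printed are the −log10 p values themselves. These depend on the depth of each library, which is unknown. Values from different lists are therefore set side by side without a test, and their differences do not measure a change in accessibility.

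Among lost regions, the strongest in wild type and uncalled with SOX2 lay 2214 bp upstream of OR52H1 (chr11:5550324-5551184), with a −log10 p of 17.4 in wild type, 3.54 with SOX2 and 6.57 with the fusion, where it was called. Next were a place at the edge of the OR5B3 window (chr11:58394023-58394809), at 16.7 in wild type, no entry with SOX2 and 4.49 with the fusion, and one 10233 bp upstream of OR5AS1 (chr11:56016708-56018134), at 12.1, 4.69 and 5.89. The strongest lost with the fusion lay in OR8J3 (chr11:56137896-56139137), at 17.8 in wild type, 18.3 with SOX2 and 4.55 with the fusion. The start of OR52N2 (chr11:5808398-5809454), whose promoter is printed above, was at 17.2 in wild type, 15.99 with SOX2 and 4.81 with the fusion, and its fusion entry had an IDR of 0.250. The OR5B3 place was the third. All of these are values of the lower input. Where SOX2 left a region uncalled, the higher input had 8.30 at OR52H1 and 5.23 at OR5AS1. Where the fusion did, it had 12.3 at OR5AS1, 8.10 at OR8J3, 10.1 at OR52N2 and 5.89 at OR5B3.

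SOX2 and the fusion share their wild-type list. The fusion had a peak at 28 of the 40 OR regions gained with SOX2 (70%, Wilson 95% interval 54.6% to 81.9%), against 71.3% of all SOX2-gained regions. SOX2 had a peak at 28 of the 54 gained with the fusion (51.9%, 38.9% to 64.6%), against 55.4% of all. Called with SOX2 and in neither other list were 12 OR regions (12.2%, against 9.72%), and with the fusion alone 26 (26.5%, against 19.5%). At any IDR the fusion had an entry at 11 of these 12, and SOX2 at 20 of these 26. At any IDR the fusion also had an entry at 39 of the 40 SOX2-gained OR regions, and SOX2 at 48 of the 54 gained with the fusion.

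The OR regions gained in 1 set were looked up in the lists of the other. SOX2 had a peak at 4 of the 30 gained with full-length FOXA2 (13.3%, Wilson 95% interval 5.31% to 29.7%), as against 4 with the fusion and 3 in the wild type of the SOX2 set, against 26.6%, 26.0% and 20.9% of all regions gained with full length. Of the 27 gained with the CTD deletion, 7 were called with SOX2 (25.9%, interval 13.2% to 44.7%), 8 with the fusion and 5 in wild type, against 30.4%, 31.8% and 26.4%. In the other direction, 8 and 4 of the 40 SOX2-gained OR regions were called in full-length replicates 1 and 2, 9 and 7 in the CTD-deletion replicates, and 3 and 0 in wild type. As shares of all SOX2-gained regions, the construct libraries had 27.4%, 15.6%, 18.02% and 30.3% in the same order, against 20%, 10%, 22.5% and 17.5% for the OR regions. Of the 54 fusion-gained ones, these were 14 and 6, 11 and 13, and 2 and 1. The construct libraries thus had 25.9%, 11.1%, 20.4% and 24.1%, against 21.96%, 12.02%, 15.1% and 24.6% of all fusion-gained regions.

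Gains were spread over the clusters. In the first cluster, with 55 class I and 12 class II genes in 1.37 Mb of windows, 12 regions were gained with full-length FOXA2, 9 with the CTD deletion, 17 with SOX2 and 24 with the fusion. The fourth cluster, with 48 genes in 0.940 Mb, had 7, 9, 13 and 14. The fifth, with 21 genes, had 4, 5, 4 and 6, and the seventh, with 22 genes, 5, 3, 3 and 5. The second, with 7 genes, had 1, 0, 3 and 5, and the pair of genes in the third had 1 gained region, with the CTD deletion. OR2AT4 had the 1 full-length region described above. By class, the windows of the 55 class I genes held 6.99 full-length-gained regions per Mb and those of the 113 class II genes 9.49. With the CTD deletion these were 6.12 and 8.63, with SOX2 12.2 and 11.2, and with the fusion 18.4 and 14.2. The log2 ratio of peaks per Mb, class I over class II, was 0.53 and −0.57 in wild type and −0.24 to −0.16 in the 4 construct libraries, with a mean of −0.14 ± 0.36 (SD, n = 6; exact sign-flip p = 0.375). The classes were therefore not told apart in peak density. A few long gene models hold many peaks: OR51B5 spans 165335 bp, OR9Q1 157736 bp and OR56A3 79760 bp.

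Genes that receptors need to work in the nose, and neighbours of the clusters, were counted at their starts. Of 11 genes of olfactory signal transduction with a listed start, 4 and 2 had a peak within 1 kb in wild type, 8 and 6 with full-length FOXA2, 4 and 6 with the CTD deletion, and 4, 5 and 5 in the wild type, SOX2 and fusion lists. The phosphodiesterase gene PDE1C had one in all 9 lists, as did EIF2AK3, a kinase of the unfolded protein response that takes part in receptor choice. ANO2, a calcium-activated chloride channel, and PDE4A, another phosphodiesterase, had one in both full-length libraries and in neither wild type of the FOXA2 set, and in 1 and 0 CTD-deletion libraries. ANO2 was open in all 3 lists of the SOX2 set, and PDE4A with SOX2. Of 11 genes of receptor trafficking and choice, 2 and 4 had a peak in wild type, 7 and 5 with full length, 2 and 6 with the CTD deletion, and 6, 6 and 3 in the SOX2 set. LDB1, a partner of LHX2 in contacts between OR enhancers, had one in all 4 construct libraries and in neither wild type of the FOXA2 set, but it was open in the wild type of the SOX2 set too. Of the factors of olfactory neurons, LHX2 and EBF1 had none in any list, EBF4 had one in 2 lists, and EBF3 had one in 5: wild type replicate 2, both full-length libraries, CTD deletion replicate 2 and SOX2. Of 11 TRIM genes of chromosome 11, within the span of an OR cluster except TRIM49, TRIM64 and TRIM66, 5 and 4 had a peak at the start in wild type, 7 and 7 with full length, 7 and 8 with the CTD deletion, and 6 in each list of the SOX2 set. TRIM6 and TRIM48 had one in all 4 construct libraries and in neither wild type of the FOXA2 set, and TRIM6 was also open in the wild type of the SOX2 set. The gene lists were chosen with earlier results of these data known, and the longer construct lists raise the count at the starts of all protein-coding genes as well.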

How the data were processed

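ATAC-seq was done on U2OS cells (12 samples, 6 groups of 2). Per the submitters' processing notes, FastQC 0.10.1, Trim Galore, Bowtie2 2.4.4, SAMtools 0.1.18, MACS2 and deepTools 2.4.1 were used with hg38; their settings are not given in the sources used here. The authors deposited 9 peak lists: 1 per library in the FOXA2 set, and 1 IDR list per group in the SOX2 set, taken to be made from both samples of the group. Each peak's fold enrichment is a ratio to local background that the authors deposited. The deposited −log10 p, −log10 q and −log10 IDR values are the authors' as well. A peak's value was used to describe, rank or filter peaks within its own list, and for the common −log10 p threshold of the FOXA2 set. Values are also set side by side between lists, without a test. No read counts were used, so depth is unknown, and intervals cover counting error only.

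With Python 3.11.15, numpy 2.4.6, pandas 2.3.3 and statsmodels 0.14.6, peaks on chromosomes 1–22 and X were merged within each set, and a region was called in a list whose peak overlapped it by at least 1 bp. The functions were tested on simulated lists. Relative density was tested with exact permutations over libraries. Gene positions, starts and promoters are from RefSeq (GRCh38.p14). Stretches of the assembly without sequence were not removed from the length of the chromosome. Regions were named by rank: up to 5 gained and 3 lost per construct, by the lowest percentile of −log10 p over its libraries, and genes with a peak within 1 kb of the start in each list of a construct, up to 8. The rule also asked for the genes with most regions gained with both FOXA2 constructs, but no window had more than 1. Genes were chosen for naming by this rule except where stated. The members, lists and comparisons were chosen with earlier results of these data known. The alternatives were equal numbers of peaks, a common p threshold, all entries whatever their IDR, gene bodies alone, removal of regions at other genes, a 50% overlap and leaving out each library. With 2 samples a group, p-values come from rearranging few libraries, whose number sets the smallest p that can be reached.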

Additional observations from a re-analysis of the deposited data

How the results depend on the processing

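With the replicate number as a block, constructs minus wild type in relative density was 0.89 as without it (exact permutation within numbers p = 0.111, the smallest that 9 arrangements allow), a setting chosen after seeing the data; nothing in the labels says that a number marks a shared culture or day. For the counts of gained regions no paired test was possible because they come from no test, and a region gained in both pairs is by definition a gained region. With equal numbers of peaks, 6 regions were gained with full-length FOXA2, 8 with the CTD deletion, 22 with SOX2 and 31 with the fusion. At a common −log10 p of 5.43 the FOXA2 counts were 18 and 12 (21.4% and 14.3% of 84 OR regions, against 15.1% and 7.63% of all regions). The CTD deletion then had peaks at a mean of 44.4% of the full-length gains. The OR density relative to the rest of the chromosome was −0.53 on the log2 scale (exact sign-flip p = 0.03125). With all entries whatever their IDR, SOX2 gained 86 and the fusion 143. In gene bodies alone the counts were 10 and 9 of 103 regions in the FOXA2 set and 13 and 19 of 34 in the SOX2 set, and that percentage was 50.0%. Over all regions the shares gained were 9.06%, 8.72%, 33.9% and 43.7% in the same order. With a 50% overlap full length gained 15, and the percentage was 53.3%. For all entries, for the 50% overlap and for these percentages, the value over all regions is not given here, so they are not set against the genome. Against the windows of other protein-coding genes, an alternative chosen after seeing the data, the relative density was −0.67 (exact sign-flip p = 0.03125). Equal numbers and the common threshold admit fewer peaks, all entries admit more, and gene bodies cover fewer bases. Otherwise the cause was not tested.

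Leaving out 1 library at a time, full-length gains ranged from 34 to 173, CTD-deletion gains from 32 to 147, the percentage from 20.8% to 80%, the relative density from −0.58 to −0.35 and constructs minus wild type from 0.82 to 0.98. The highest counts came without full-length replicate 2 and without CTD deletion replicate 1, at 51.8% and 48.2% of OR regions, against 49.0% and 46.4% of all regions. The lowest percentage, 20.8%, came without full-length replicate 2, and its value over all regions is not given here. Constructs minus wild type stayed positive in all settings run, from 0.59 (without regions at other genes) to 1.74 (gene bodies alone), and at 0.67 and 0.70 when that removal was joined with a common threshold or equal numbers, both chosen after seeing the data. Without any wild-type entry, whatever its IDR, SOX2 gained 27 and the fusion 40, also chosen after seeing the data. That setting left out 32.5% and 25.9% of the OR gains, against 37.4% and 28.1% of all regions gained with each. Unknown depth, 12 OR peaks per wild-type list and 1 list per group in the SOX2 set limit the precision.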
